A study of Mus musculus with 2 samples.

Results

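Platelet and megakaryocyte genes were examined in the RNA of tumour-infiltrating M-MDSCs, the monocytic myeloid-derived suppressor cells, to see how much platelet RNA each of the pools carried. The genes were Itga2b, Gp1ba, Gp1bb, Gp9, Gp6, Treml1, Clec1b, Tubb1 and Vwf. Their probes were all non-control probes whose identifier was a RefSeq transcript of a listed gene, which gave 13 probes for 9 genes, among 20653 named genes on the array. The cells came from 4T1 mammary tumours, grown from 1000000 cells injected under the skin of the left armpit of female mice, whose strain the sample labels spell BABL/c. The labels give no age, and all mice were starved before the injection. The NSD group then ate chow with 0.4% NaCl and drank tap water for 16 days, and the HSD group ate chow with 4% NaCl and drank water with 1% NaCl for the same time. Both groups shared the strain, the sex, the tumour and the cell isolation. Cells of a diet group were mixed in equal numbers and measured on 1 array with a single dye, so the spread between mice is not known and the diets could not be tested against each other. According to the methods, the tumours were digested with collagenase, the suspension was centrifuged and red blood cells were lysed. The cells were then captured with antibodies against Gr-1 or Ly-6G on magnetic columns. The methods do not say how many free platelets these steps left. Nor do they name a platelet marker used to deplete platelets, free or bound to leukocytes.

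Platelets are fragments shed into the blood by megakaryocytes, and they keep part of the RNA of their parent cell. On their surface the GPIb-IX-V complex catches von Willebrand factor on an injured vessel wall, GPVI binds collagen, CLEC-2 binds podoplanin, and the integrin alphaIIb-beta3 then binds fibrinogen and links platelets to each other. Platelets also attach to activated monocytes and neutrophils, so that a leukocyte preparation can hold their RNA. Some of these genes are also used by other cells, since endothelial cells make von Willebrand factor and mouse myeloid cells have been found to carry CLEC-2.

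The promoters of 8 of the 9 genes were matched in the RefSeq sequences of mouse assembly GRCm38.p6, and that of Vwf was not analysed here. The array holds no measurement of promoters. The sequences of the 3 genes that were at least 1.5-fold lower on the HSD array, and of Clec1b, which differed little, are shown so that the genes can be compared. Each is the 250 bases before the annotated start, 5′ to 3′ on the strand of the gene. Capitals mark 2 kinds of letters. One is AGATAA or TGATAA, bound by GATA factors such as the megakaryocyte regulator GATA1. The other is GGAAG, the core bound by ETS factors such as FLI1. Both strands were searched, so a match on the opposite strand appears as its reverse complement. The GATA and ETS letters do not overlap each other here. The Gp1ba promoter lies at chr11:70638872-70639121 on the plus strand, that of Itga2b at chr11:102469884-102470133 on the minus strand, that of Treml1 at chr17:48359666-48359915 on the plus strand, and that of Clec1b at chr6:129397047-129397296 on the plus strand.
Gp1ba: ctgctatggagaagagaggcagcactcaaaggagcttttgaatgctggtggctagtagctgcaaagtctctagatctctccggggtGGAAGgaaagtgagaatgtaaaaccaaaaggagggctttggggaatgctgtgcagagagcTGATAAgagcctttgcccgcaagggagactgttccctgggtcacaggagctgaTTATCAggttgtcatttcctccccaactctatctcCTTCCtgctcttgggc
Itga2b: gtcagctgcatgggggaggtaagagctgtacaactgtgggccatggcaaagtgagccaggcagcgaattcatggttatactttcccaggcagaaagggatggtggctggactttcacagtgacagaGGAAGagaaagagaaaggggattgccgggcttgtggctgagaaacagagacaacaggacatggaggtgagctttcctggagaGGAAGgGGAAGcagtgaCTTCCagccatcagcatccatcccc
Treml1: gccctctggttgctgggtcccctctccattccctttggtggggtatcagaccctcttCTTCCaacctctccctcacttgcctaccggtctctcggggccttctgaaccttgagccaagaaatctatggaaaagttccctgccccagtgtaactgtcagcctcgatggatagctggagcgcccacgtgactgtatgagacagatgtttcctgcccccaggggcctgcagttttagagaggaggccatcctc
Clec1b: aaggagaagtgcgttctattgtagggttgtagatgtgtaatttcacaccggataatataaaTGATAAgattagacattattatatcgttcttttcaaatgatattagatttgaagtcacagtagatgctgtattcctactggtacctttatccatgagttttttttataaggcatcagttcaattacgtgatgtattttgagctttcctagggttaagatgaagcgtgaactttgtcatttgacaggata

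The GATA letters were present in 3 of the 8 promoters, those of Gp1ba, Gp6 and Clec1b. Among all 32851 promoters of the table, 16.6% held them. The ETS letters were present in 6 of the 8, and in 64.1% of all promoters. Gp1ba was the 1 member that held both, as 9.52% of all promoters did. In its promoter the GATA letters began 104 and 51 bases before the start, and the ETS letters 164 and 16 bases before it. The Itga2b promoter held 4 ETS matches within 124 bases of the start and none of the GATA letters. A match is a description of letters and not of a bound factor.

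The signal of a probe was the processed intensity of the scanner software, given with the error that the software assigned to it. Signals on the NSD array are given first in each sentence. Fold changes were taken on the log2 scale as HSD minus NSD after each array was scaled on its 75th percentile, 252.2 units for NSD and 232.9 for HSD. Their errors combine the software errors of both arrays and do not cover mice or cell preparations. The software called 71.9% and 72.4% of probes well above background on the arrays, the lowest such signals were 4.61 and 4.39 units, and no spot was saturated. Spots of a probe printed several times had a median SD of 0.082 on the log2 scale, which was 0.173 for probes under 40 units.

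**Figure D1:**
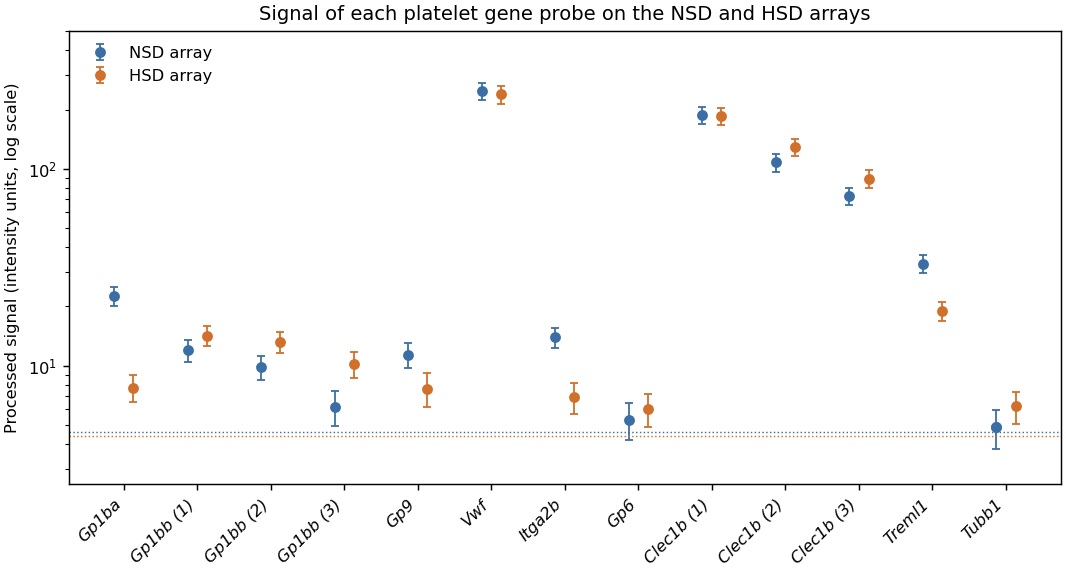
Processed signal (intensity units, log scale) of the 13 platelet gene probes on the NSD (blue) and HSD (orange) arrays, with bars for the software error of each signal; dotted lines show the lowest signal well above background on each array. Gp1ba, Itga2b, Treml1 and Gp9 lie lower on the HSD array with bars that do not overlap, and the dimmer Gp1bb probes lie higher in the same way. The probes of Vwf and Clec1b lie between 72.87 and 248.6 units on both arrays.

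Of the 9 genes, 3 were at least 1.5-fold lower on the HSD array and 0 were at least 1.5-fold higher. Gp1ba was 2.7-fold lower, Itga2b 1.85-fold and Treml1 1.61-fold. The background share, over all 16312 named genes that at least 1 array measured well above background, was 10.3% for genes lower by 1.5-fold or more and 9.86% for genes higher. That balance rested on the scaling, since 2271 genes were lower and 1101 higher without it, and 1991 and 1244 with cyclic loess, against 1682 and 1608. At the probes used, only these 3 genes changed by more than 2 errors. On the log2 scale, 4 of the 9 were below 0 and 5 above 0. At the probes used, the 5 above 0 were all within 2 errors, so no rise was measured there. The other probes of Gp1bb were above 0 by 2.05 and 2.32 times their errors. The median of the 9 was 0.06, and the median over all genes was 0.05. In bulk RNA, fewer cells of a type and less RNA per cell cannot be told apart.

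The GPIb-IX complex, the receptor for von Willebrand factor, was measured through 3 of its genes. At the probes used, only Gp1ba differed by 1.5-fold or more. Gp1ba, which encodes the chain that holds the binding site for von Willebrand factor, had a signal of 22.64 ± 2.48 units with NSD and 7.733 ± 1.23 with HSD. The log2 fold change was -1.44 ± 0.28, which is 5.17 times its error and placed the gene 332nd from the lowest of the 16312. Before any correction, the median brightness of the Gp1ba spot was 39 units over a local background of 18 with NSD, and 26 over 18 with HSD.

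Gp9, the small subunit needed for the complex to reach the surface, had signals of 11.37 ± 1.7 and 7.628 ± 1.5 units, a log2 fold change of -0.46 ± 0.36. That is under 1.5-fold and within 2 errors. Gp1bb, the chain joined to GPIb-alpha by disulfide bonds, had 3 probes, and all of them read somewhat higher on the HSD array in processed signal. The probe used for the gene had 11.99 ± 1.51 and 14.21 ± 1.69 units, a log2 fold change of 0.36 ± 0.25. The other two gave 0.54 ± 0.26, from 9.849 to 13.25 units, and 0.84 ± 0.36, from 6.167 to 10.2 units. The last of these is a 1.79-fold difference at a signal near background. Before correction, the spot of the probe used stood 17 units over its local background with NSD and 16.5 with HSD. The spot of the last probe stood 7 units over it with both diets, and that of the remaining probe 10 and 17. With the normexp background correction the probe used was at 0.10, both with an offset of 50 and with none. Gp1bb overlaps Septin5 in the annotation, and the Septin5 probe also read higher on the HSD array, 61.64 and 84.55 units, a log2 fold change of 0.57 ± 0.21. The sequences of these probes were not used here, so transcripts that span both genes could not be told apart from those of Gp1bb alone. Gp5, the remaining subunit, had 5.346 and 2.008 units and was near background on both arrays, well above it on neither.

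The ligand of that complex, Vwf, was nearly level. Its signals were 248.6 ± 24.9 and 238.6 ± 23.9 units, a log2 fold change of 0.06 ± 0.20. The uncorrected spots read 279 and 285 units over backgrounds of 18 and 17. Since endothelial cells also make von Willebrand factor, the endothelial markers are given with it. Of the 10 on the list, 8 were well above background with at least 1 of the diets, and they held 1 lower (Ptprb, 22.35 and 12.26 units) and 0 higher, with a median of 0.04 and a summed signal of 630.8 and 696 units. Cdh5, which encodes VE-cadherin, was at 5.305 units with NSD and not well above background with HSD, Tie1 and Emcn were not well above background on either, and Plvap was at 392.6 and 452.1 units. For Kdr the probes disagreed, with 150.1 and 168.7 units at the one used and 124.2 and 20.44 at the other. Over all genes, 10.3% were at least 1.5-fold lower and 9.86% higher. The part of endothelial RNA in the Vwf signal was not tested.

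Itga2b encodes the alphaIIb chain of the fibrinogen receptor and is known as CD41. Its signals were 13.91 ± 1.68 and 6.944 ± 1.26 units, a log2 fold change of -0.89 ± 0.31, or 2.82 times the error. The uncorrected spot read 32.5 units over 17 and then 23 over 15. Its partner Itgb3, the beta3 chain, which other cells also use in another integrin, did not share this difference. The Itgb3 probe used had 585.2 and 621.1 units, a log2 fold change of 0.20 ± 0.20, and its other probe had 6.384 and 27.14 units, a log2 fold change of 2.20 ± 0.34. The probes of Itgb3 thus disagreed in size.

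The activating receptors gave low or level signals. Gp6, the collagen receptor of platelets, was close to background, at 5.311 ± 1.11 and 6.036 ± 1.14 units, a log2 fold change of 0.30 ± 0.41. Fcer1g, the signalling chain that GPVI needs and that myeloid cells share, had 2.49e+04 and 2.925e+04 units, a log2 fold change of 0.35 ± 0.20. Clec1b, which encodes CLEC-2, had 3 probes that were clear of background on both arrays. The probe used had 187.1 ± 18.7 and 185.1 ± 18.5 units, a log2 fold change of 0.10 ± 0.20. The others had 107.7 and 128.8 units, and 72.87 and 89.19 units, with log2 fold changes of 0.37 ± 0.21 and 0.41 ± 0.21. None reached 1.5-fold. Clec12b overlaps Clec1b in the annotation, and neither of its probes was well above background on an array.

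Treml1 encodes TLT-1, a receptor held in platelet alpha granules and brought to the surface on activation. Its signals were 32.91 ± 3.42 and 18.86 ± 2.09 units, a log2 fold change of -0.69 ± 0.22, or 3.14 times the error. The uncorrected spot read 53.5 units over 18 and then 38.5 over 18. Tubb1, the beta1-tubulin of the platelet's marginal band, was the 1 gene not well above background on the NSD array. It read 4.878 ± 1.09 units there and 6.215 ± 1.16 with HSD. The scaled log2 difference of these signals was 0.46 ± 0.42, close to its error. Before correction the spots read 24 and 23 units, both over 17, and normexp without an offset gave 0.01, so no direction could be given for Tubb1.

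**Figure D2:**
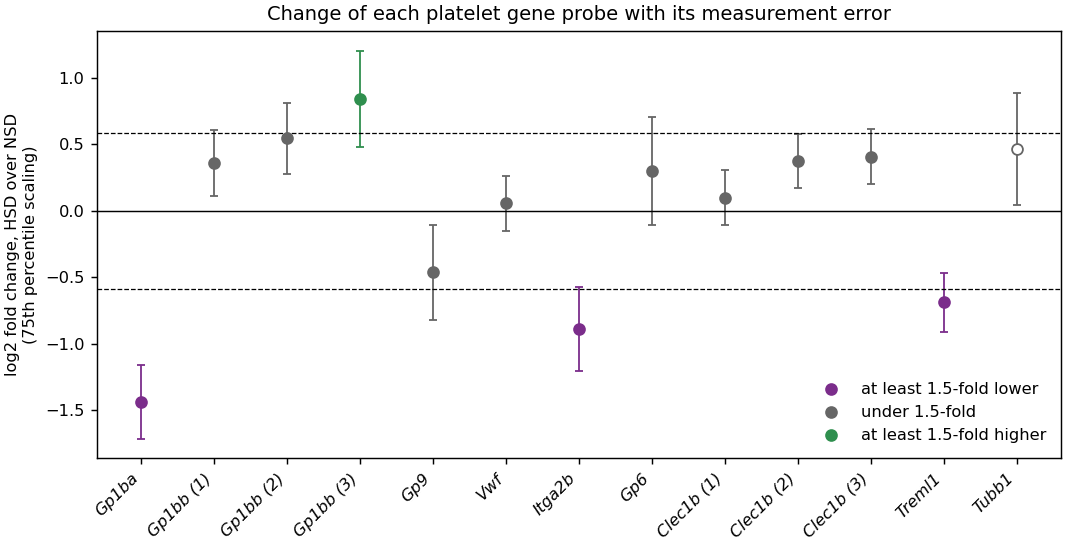
Log2 fold change of each platelet gene probe, HSD over NSD after scaling on the 75th percentile, with bars for the combined software error of both arrays; dashed lines mark 1.5-fold and the open circle is Tubb1, not well above background on the NSD array. Gp1ba, Itga2b and Treml1 lie below the lower line, 1 of the 3 Gp1bb probes lies above the upper line, and the other 9 probes lie between the lines.

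A change over 2 errors was seen at 5 of the 13 probes and, at the probes used, in 3 of the 9 genes, the same 3 that were called lower. All 3 had signals under 40 units on both arrays, as had 7 of the 9 genes. Dim probes vary more, so the members were also set beside genes of like signal. The 16312 named genes that at least 1 array measured well above background were ordered by mean signal. They were cut into 5 classes of nearly equal size. The dimmest class held Gp1ba and Itga2b, and also Gp1bb, Gp9, Gp6 and Tubb1, which were not called at the probe used. In that class 13.7% of genes were at least 1.5-fold lower and 16.1% at least 1.5-fold higher. In class 2, which held Treml1, the shares were 11.3% and 8.95%. In class 3, which held Clec1b, they were 12.4% and 7.97%, and in class 4, which held Vwf, 8.58% and 8.25%. In the brightest class they were 5.55% and 8.06%.

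**Figure D3:**
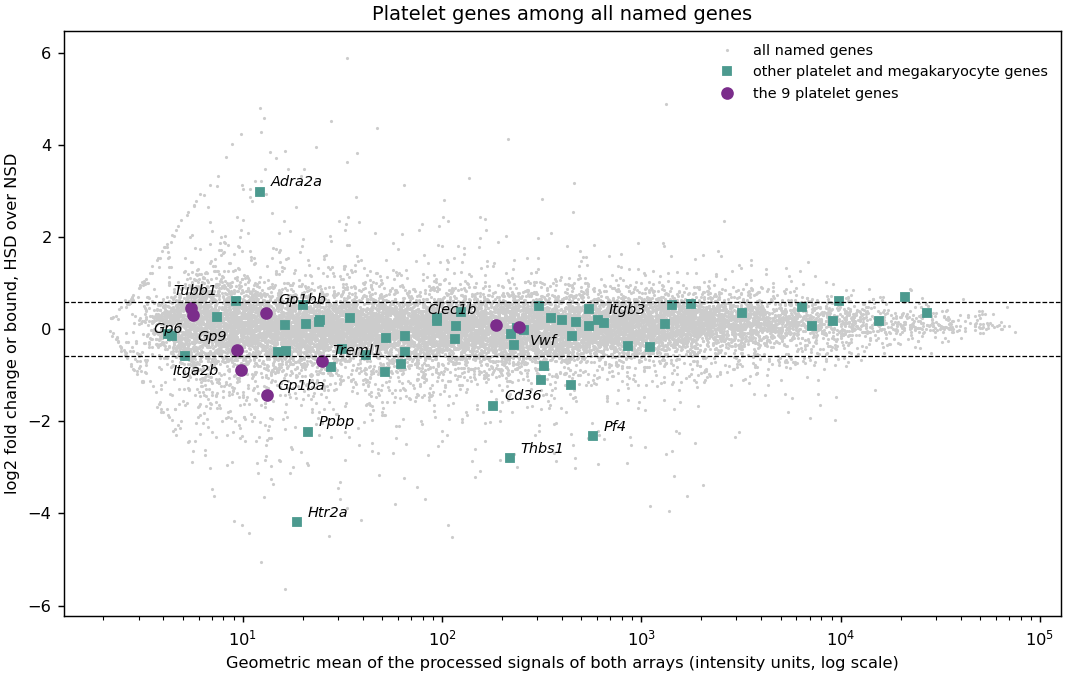
Log2 fold change or bound (HSD over NSD, vertical) against the geometric mean of the processed signals of both arrays (intensity units, log scale) for 16312 named genes (grey), 61 other platelet and megakaryocyte genes (green squares) and the 9 platelet genes (purple); dashed lines mark 1.5-fold. The spread of all genes is wide at the left, where 7 of the 9 platelet genes lie, and Pf4, Ppbp, Thbs1, Cd36 and Htr2a lie further below the lower line than any of the 9.

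The summed signal of the 9 genes was 538.7 units with NSD and 491.3 with HSD, a ratio of 0.912, or 0.987 after scaling. Vwf and Clec1b made up most of that sum. The other 7 genes summed to 103 and 67.63 units, a ratio of 0.711 after scaling, with a median log2 fold change of -0.46. This split was made after the values were seen.

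The size of the differences at dim probes depended on the background correction. With the normexp correction of limma and an offset of 50, the log2 fold changes were -0.16 for Gp1ba, -0.05 for Itga2b and -0.15 for Treml1, and 0 of the 9 genes remained past 1.5-fold. With the same correction and no offset, chosen after seeing the data, they were -0.83, -0.50 and -0.52, and Gp1ba alone was past 1.5-fold. Over 12 alternatives Gp1ba was at least 1.5-fold lower in 11, and Itga2b and Treml1 in 10 each. All 3 stayed below 0 in every one of them. Not all of these alternatives could move the 3 genes. Each has a single probe, well above background on both arrays, so the filters and the median over probes returned the main value. Of the 12, only the normexp settings took any of the 3 under 1.5-fold. Vwf and Clec1b moved between -0.06 and 0.17 and between -0.02 and 0.37. Computed from the deposited table of normalized log2 values, the fold changes were -1.42 for Gp1ba, -0.90 for Itga2b, -0.68 for Treml1 and -0.50 for Gp9. Gp9 was at 0.04 with normexp and an offset of 50 and at -0.18 with none.

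**Figure D4:**
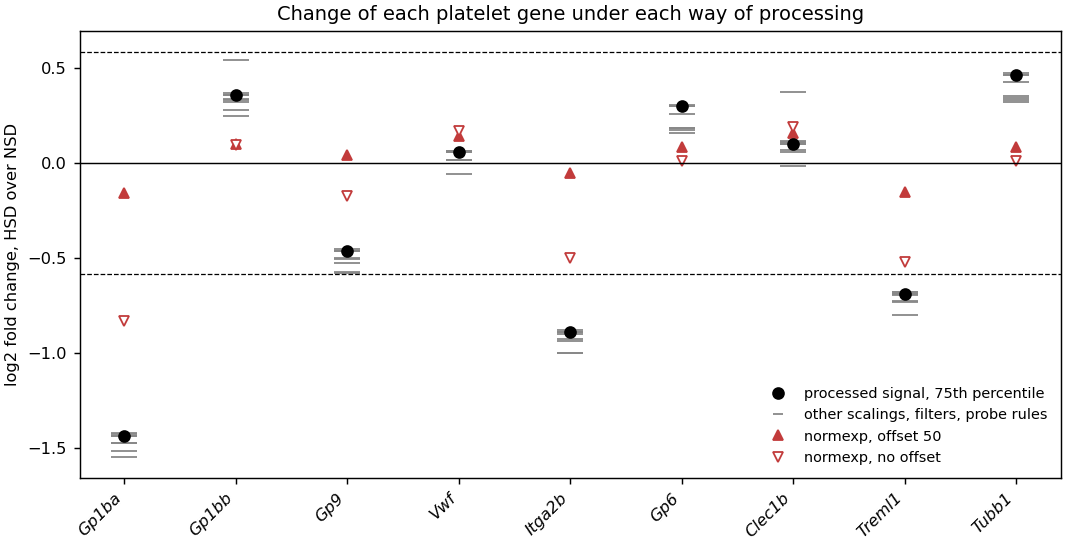
Log2 fold change (HSD over NSD) of each platelet gene with the processed signal scaled on the 75th percentile (black), with other scalings, filters and probe rules (grey), and with normexp background correction with an offset of 50 (filled red) or none (open red); dashed lines mark 1.5-fold. Gp1ba, Itga2b and Treml1 move toward 0 with normexp, to between -0.16 and -0.05 with the offset.

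Other genes of platelets and megakaryocytes were drawn from a list of 66, of which 65 had a probe and 61 were well above background with at least 1 diet. Of these 61, 11 (18%) were 1.5-fold lower or more and 4 (6.56%) at least 1.5-fold higher. Over all genes the shares were 10.3% and 9.86%, and the counts of the shorter lists below are to be read beside them. The median log2 fold change of the 61 was 0.07. Gp5, Itga2, the alpha2 chain of the collagen integrin, Mpig6b and Cd226 were not well above background on either array.

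Of the 14 genes of granule content and secretion, 3 were lower and 0 higher, with a median of -0.15. Pf4, the platelet factor 4 chemokine of alpha granules, had 1332 and 245.1 units, a log2 fold change of -2.33 ± 0.20. Ppbp, the precursor of the chemokine NAP-2, had 47.89 and 9.457 units, a log2 fold change of -2.23 ± 0.27. Thbs1, thrombospondin of alpha granules, which macrophages also secrete, had 600.2 and 79.67 units, a log2 fold change of -2.80 ± 0.21. Each of these 3 was lower by a larger fold than any of the 9 genes. With normexp and an offset of 50 they were at -2.07, -0.52 and -2.10, so that Ppbp was then under 1.5-fold. The others were under 1.5-fold at the probe used, among them Clu at 0.18 and Selp, the P-selectin of alpha granules, at -0.21. Other probes of 3 of these genes passed 1.5-fold. Stxbp2, a secretion factor, had 5254 and 9379 units at its other probe against 7268 and 7074 at the one used. Sparc had 9.048 units and then a signal not well above background, and F13a1, the A chain of factor XIII, had 17.85 and 10.81 units.

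Of the 8 usable adhesion receptors, 2 were lower and 2 higher. Cd36, the thrombospondin receptor also known from macrophages, had 334.5 and 97.56 units, a log2 fold change of -1.66 ± 0.21. Itga6, the alpha6 chain of the laminin receptor, had 475.1 and 205.1 units, a log2 fold change of -1.10 ± 0.20. The higher genes were the tetraspanin Cd9, with a log2 fold change of 0.70 ± 0.20, and the junction molecule Jam3, with 0.60 ± 0.30 at 7.823 and 10.97 units. Both were under 1.5-fold with cyclic loess, at 0.56 and 0.48, and without scaling, at 0.58 and 0.49. Jam3 was also under it with quantile normalization (0.54) and the deposited values (0.52). The percentile over probes well above background on both arrays gave 0.56 for Jam3. With normexp Jam3 was at 0.17 with an offset of 50 and at 0.44 with none.

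Of the 10 receptors for soluble agonists, 2 were lower and 1 higher. P2ry12, the ADP receptor that antiplatelet drugs block, had 74.23 and 36.07 units, a log2 fold change of -0.93 ± 0.21, and -0.40 with normexp and an offset of 50. The other ADP receptor, P2ry1, had 267.1 and 349 units, a log2 fold change of 0.50 ± 0.20, which is under 1.5-fold. Ptger3, a prostaglandin E2 receptor, was at -0.50 and Ptgir, the prostacyclin receptor, at 0.55, both under 1.5-fold. The remaining calls were bounds and were picked out after their values were seen. Htr2a, the serotonin receptor, was at 87.14 units with NSD and not well above background with HSD, where it had 4.03. Its log2 bound was -4.20, and this depended on the background correction, with -0.94 under normexp and an offset of 50 and -3.04 under normexp with none. Adra2a, the adrenergic receptor, was at 4.396 units and not well above background with NSD, and at 33.72 units with HSD. Its log2 bound was 2.98, with 0.62 under normexp and an offset of 50 and 1.90 under normexp with none.

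Of the 15 genes of signalling, the cytoskeleton and eicosanoids, 3 were lower and 0 higher. Tbxas1, the thromboxane synthase, which monocytes also use, had 703.1 and 280.8 units, a log2 fold change of -1.21 ± 0.20. Tuba8, a tubulin, was at -0.80 ± 0.20, and Arhgef12, a guanine nucleotide exchange factor named because it completes the count, was at -0.76 ± 0.21, or -0.39 with normexp and an offset of 50. Ptgs1, the cyclooxygenase before Tbxas1 in thromboxane synthesis, had 650.9 and 654.6 units, a log2 fold change of 0.12 ± 0.20. The largest values on the other side were Rasgrp2 at 0.53 and Mylk at 0.52, both under 1.5-fold. The other Rasgrp2 probe, with 700.3 and 1022 units, was at 0.66 ± 0.20, or 1.58-fold higher.

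Of the 14 regulators of megakaryocytes, 1 was lower and 1 higher, a median of 0.06. Meis1, a homeobox factor of progenitors and megakaryocytes, had 38.48 and 20.01 units, a log2 fold change of -0.83 ± 0.22, and -0.20 with normexp and an offset of 50. Nfe2, a factor of platelet shedding that myeloid cells also express, had 8222 and 1.158e+04 units, a log2 fold change of 0.61 ± 0.20. It was under 1.5-fold without scaling (0.49), with cyclic loess (0.49), with quantile normalization (0.51) and with the deposited values (0.51). The percentile over probes well above background on both arrays also put it under 1.5-fold (0.57). Tal1 was at -0.51 and Fli1 at 0.34.

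Markers of other cells in the preparations are given beside these values. Their counts of lower and higher genes are to be read beside the 10.3% and 9.86% over all genes. The labelled cell type was met in part. Itgam, which encodes CD11b, had 3.156e+04 and 3.104e+04 units and Ly6c1 5.181e+04 and 4.848e+04, close to level between the diets. The 7 measured neutrophil markers were also all well above background, with a summed signal of 3.024e+05 and 2.965e+05 units, 0 lower and 0 higher, and S100a8 and Csf3r at 5.791e+04 and 5.394e+04 units on the NSD array. Probes for Ly6c2 and Ly6g were not matched, so the monocytic and granulocytic cells were not separated by the genes whose products the antibodies bind.

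Of the 6 measured macrophage markers, 4 were lower and 0 higher, with a median log2 fold change of -1.94 and a summed signal of 7068 and 4341 units. Mrc1, the mannose receptor, had 134.3 and 5.493 units, C1qc 52.56 and 5.611, and Mertk 95.9 and 15.42. The 2 under 1.5-fold were C1qb, which read higher with HSD at 50.35 and 58.42 units, and Adgre1, which encodes F4/80 and made up most of the sum at 6723 and 4252 units. Of the 6 monocyte markers, 2 were lower (Ccr2 and Fcgr1, the latter 304.7 and 21.9 units) and 1 was higher (Cd14, 2337 and 3804 units), and the sum was 9.761e+04 and 9.16e+04. Thbs1, Cd36, Pf4 and Tbxas1 were lower on the same array as the macrophage markers, and the part of macrophage RNA in their signals was not tested.

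Of the 5 markers of blood progenitors, 2 were lower at the probe used, Cd34 (141.2 and 66.36 units) and Mpo (3536 and 1723 units), and 0 higher. The other Cd34 probe went the opposite way. It read 3.372 units with NSD, not well above background, and 9.813 with HSD, a log2 bound of 1.20. Myb had 1131 and 1346 units, under 1.5-fold. The median was -0.46 and the sum 4902 and 3202 units, most of it from Mpo. Itga2b is also known from early blood progenitors, and their part in its signal was not tested. None of the 9 markers of basophils and mast cells passed 1.5-fold in either direction, with a sum of 8212 and 6600 units. Hdc made up most of that sum, at 6785 and 5522 units. None of the 5 measurable erythroid markers did either at the probe used, with a sum of 1.171e+04 and 1.192e+04 units. Hba-a1 made up most of it, at 1.027e+04 and 1.084e+04 units. Another Ermap probe passed 1.5-fold as a bound, from 2.025 units, not well above background, to 7.44. Epb42 and Rhag, both of red cell precursors, were not well above background on either array.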

How the data were processed

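RNA of M-MDSCs pooled within each diet group was measured on 1 Agilent Mouse GE v2 microarray (4 × 44 k format) per group. The authors deposited the scanner output, whose processed signal is an intensity corrected for background by Feature Extraction 11.0.1.1, and a table of normalized log2 values, both columns of which hold the same distribution above their floor, so that their quartiles are equal (upper quartile 7.8859). That table was made with GeneSpring GX according to the supplement, the algorithm is not given in the sources used here, and no value column was left unused.

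Spots that were controls or carried an outlier flag (162 and 179) were dropped. The log2 of the processed signal was averaged over the spots of each probe and scaled by subtracting the array's 75th percentile. A probe was well above background when at least 50% of its spots were so called. A gene was represented by its brightest probe over both arrays, and every probe of the 9 genes is given. Where a probe was well above background on 1 array, the fold change is a bound, computed on the other array from the lowest signal well above background or from the probe's own signal if that was higher. A gene was called at 1.5-fold. With 1 array per group no p-value is given, and precision is limited by the number of arrays. Probes were named through RefSeq transcripts of GRCm38.p6, and 27223 of 39413 (69.1%) found a name. The design of the array is older, so no probe coordinates are given.

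The 9 genes, the lists and their alternatives were chosen with earlier results of these data known. Named were all 9 genes, up to 2 genes each way of every list among those measured above background with both diets, and Pf4, Ppbp, Itgb3 and Gp5, with markers needed for the sums. Some genes that this rule names are not reported here. The calling step was tested on simulated data. The alternatives were normexp background correction on the median spot and local background intensity, 6 other scalings or sources of values, 3 choices of filter or flags, a 2-fold threshold, and the median over probes. Python 3.11.15, numpy 2.4.6, pandas 2.3.3, matplotlib 3.10.9, R 4.3.3 and limma 3.58.1 were used.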

Additional observations from a re-analysis of the deposited data

How the results depend on the processing

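No paired analysis was possible because each diet has 1 array and the labels give no shared replicate numbers. Scaling moved the median log2 fold change of all genes from 0.05 to -0.07 when none was applied, and the medians of the 9 platelet genes and of the 61 other platelet genes then turned from 0.06 to -0.059 and from 0.07 to -0.047. When both arrays had to be well above background, which drops Tubb1, the median of the remaining 8 was -0.20. Of the 9 genes, 3 were called lower, and this became 0 with normexp and an offset of 50, 1 with normexp and no offset and 1 at 2-fold. Of the other platelet genes, 11 were called lower, and this became 7 with normexp and an offset of 50 and 7 at 2-fold. The 4 called higher became 1 with no scaling, 2 with the percentile taken over the probes that both arrays measured well above background, 2 with quantile normalization, 1 with cyclic loess, 2 with the deposited log2 values and 1 at 2-fold. Of all genes, 1608 were called higher and 1682 lower. These became 1101 and 2271 without scaling, 1244 and 1991 with cyclic loess, 619 and 655 with normexp and an offset of 50, and 428 and 681 at 2-fold, while 2903 were higher without a filter on dim probes. Fewer genes pass a higher threshold by construction, and the cause of the other shifts was not tested. For single genes, 97 of 107 values under the alternatives moved by less than the error of the main value and 10 moved by more. That count includes settings, such as the filters, that leave most of these values as they were by construction. Signals within a few units of the lowest well above background, as for Gp6 and Tubb1, limit what could be detected.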
